A study of Mus musculus with 12 samples.

Results

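Nnmt and the enzymes of the methionine methyl cycle were followed in mouse liver. The set holds 9 genes out of 13267 in the deposited table: Nnmt, Mat1a, Mat2a, Ahcy, Gnmt, Bhmt, Pemt, Cbs and Cth, each found by its symbol under 1 transcript ID. All 9 passed the filter on low values. The 9 were chosen with the difference between treated and control livers already known, so that difference is given for them as a description, without a test.

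The methionine cycle supplies the methyl groups of the cell. Methionine adenosyltransferases make S-adenosylmethionine (SAM), methyltransferases pass its methyl group to many acceptors, and the product, S-adenosylhomocysteine, is split to homocysteine, which is either methylated back to methionine or drawn off into cysteine. The liver carries out most of this turnover in mammals. Nnmt, nicotinamide N-methyltransferase, uses SAM to methylate nicotinamide, a form of vitamin B3 that otherwise can be recycled to NAD, and so joins the methyl cycle to NAD metabolism.

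Liver RNA came from 12 C57BL/6 mice, all made obese with hepatic steatosis on a high-fat diet (HFD). In 6 of them a scaffold alone was placed under the skin, and in the other 6 it delivered 4-HPAA, 4-hydroxyphenylacetic acid, a microbial breakdown product of polyphenols, for 6 weeks. All mice share strain and diet, and no lean group was analysed here. The labels give no age, sex, dose or batch, and number the mice of each group without saying more of their origin, so errors measure the spread between these samples. Values are normalised read counts, that is, the authors' counts after scaling each library. Library totals were 22869813 to 25255447, from an estimated 22388924 to 26924631 reads, and the hepatocyte markers fixed for the check (8 of 8 in the table, Alb among them) summed to 2245800 to 2755740 in controls and 1920880 to 2509260 with 4-HPAA. Alb alone, which makes up most of that sum, was at 1735801 to 2091337 and 1258013 to 1866030, with 5 of 6 4-HPAA mice below the lowest control. Of the 8 markers 5 had positive and 3 negative differences, with a median of 0.12.

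Nnmt lies on the minus strand of chromosome 9, from 48591877 to 48605153 (GENCODE M21 on GRCm38, the build the submitters' processing notes name), and Mat1a on chromosome 14, from 41105035 to 41124412. The others are spread over the genome, with Mat2a on chromosome 6, Ahcy on chromosome 2, Bhmt on chromosome 13, Pemt on chromosome 11, Cth on chromosome 3, and Gnmt and Cbs both on chromosome 17. How far a gene's reads can be told from those of other genes was read from annotated transcripts, by cutting them into words of 50 bases. None of the 1617 words of Nnmt occurred in another gene, and none of those of Mat1a, Gnmt or Cth. The longest stretch that the coding sequence of Nnmt shares with Inmt, a related methyltransferase of small amines, is 17 bases, shown in capitals with its surroundings because it bears on whether their reads could be mixed.
Nnmt, coding bases 161 to 217: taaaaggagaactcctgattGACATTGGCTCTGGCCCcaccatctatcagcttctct
Inmt, coding bases 164 to 220: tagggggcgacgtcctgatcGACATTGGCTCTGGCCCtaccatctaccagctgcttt
The coding sequences of Mat1a and Mat2a are 73.1% identical over 1185 aligned bases, and their longest common stretch is 15 bases.

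Ahcy had the most sequence in common with another gene. Of its 2799 words, 68.7% also occurred in another gene, nearly all of them in Gm4737, a single-exon gene on chromosome 16 whose coding sequence is 99.7% identical to that of Ahcy. The coding sequences, both 1296 bases long, differ at 4 positions, counted from the first base of the start codon: C459T, G474A, C1050T and C1068T, with the base of Ahcy first. The windows around the last of these positions show how little separates them, with the differing base in capitals.
Ahcy, coding bases 1053 to 1083: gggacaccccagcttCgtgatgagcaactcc
Gm4737, coding bases 1053 to 1083: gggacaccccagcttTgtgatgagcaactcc
Gm4737 was listed at 96 to 187 in the 12 livers, against 27592 to 42331 for Ahcy, and the division of reads between them by the authors' counting is uncertain. For Bhmt, 26.1% of words recur in other genes, 1389 of 1501 of them in Gm5096, a gene not analysed here. Its longest coding stretch in common with its neighbour Bhmt2 is 59 bases.
Bhmt, coding bases 860 to 958: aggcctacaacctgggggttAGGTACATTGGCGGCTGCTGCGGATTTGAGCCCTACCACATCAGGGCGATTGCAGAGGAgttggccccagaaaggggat
Bhmt2, coding bases 833 to 931: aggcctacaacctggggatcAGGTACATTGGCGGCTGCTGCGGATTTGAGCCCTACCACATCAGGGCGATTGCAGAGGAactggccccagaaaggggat
For Mat2a, 14.2% of words recur, most of them on the opposite strand of Particl, a transcript listed at 10 to 41 that overlaps 508 exon bases of Mat2a. The library kit was directional per the labels, but the strand setting of the counting is not stated there, so the reads of Mat2a and Particl may not have been told apart.

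Nnmt was higher in every 4-HPAA liver than in any control liver. The controls had 2977, 2058, 2408, 3081, 2638 and 3077 normalised counts in replicates 1 to 6. The 4-HPAA livers had 6279, 4899, 4745, 3252, 6641 and 3994. The groups did not overlap, although 4-HPAA replicate 4 lay close above the highest control, and the 4-HPAA mice spread more widely, with a coefficient of variation of 26.2% against 15.4%. The means were 2706.5 ± 416 and 4968.3 ± 1301 (SD, n = 6 each), and the difference on the log2(value + 1) scale, 4-HPAA minus control, was 0.85 ± 0.16 (SE), or 1.80-fold. At the lowest of these values, counting error alone is 2.2%. Groups without overlap were found for 0.66% of the 12720 genes tested, 0.307% with 4-HPAA higher. Of the 9 genes, 1 was among them, Nnmt, and since the genes were chosen on this contrast nothing is read from that count.

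**Figure D1:**
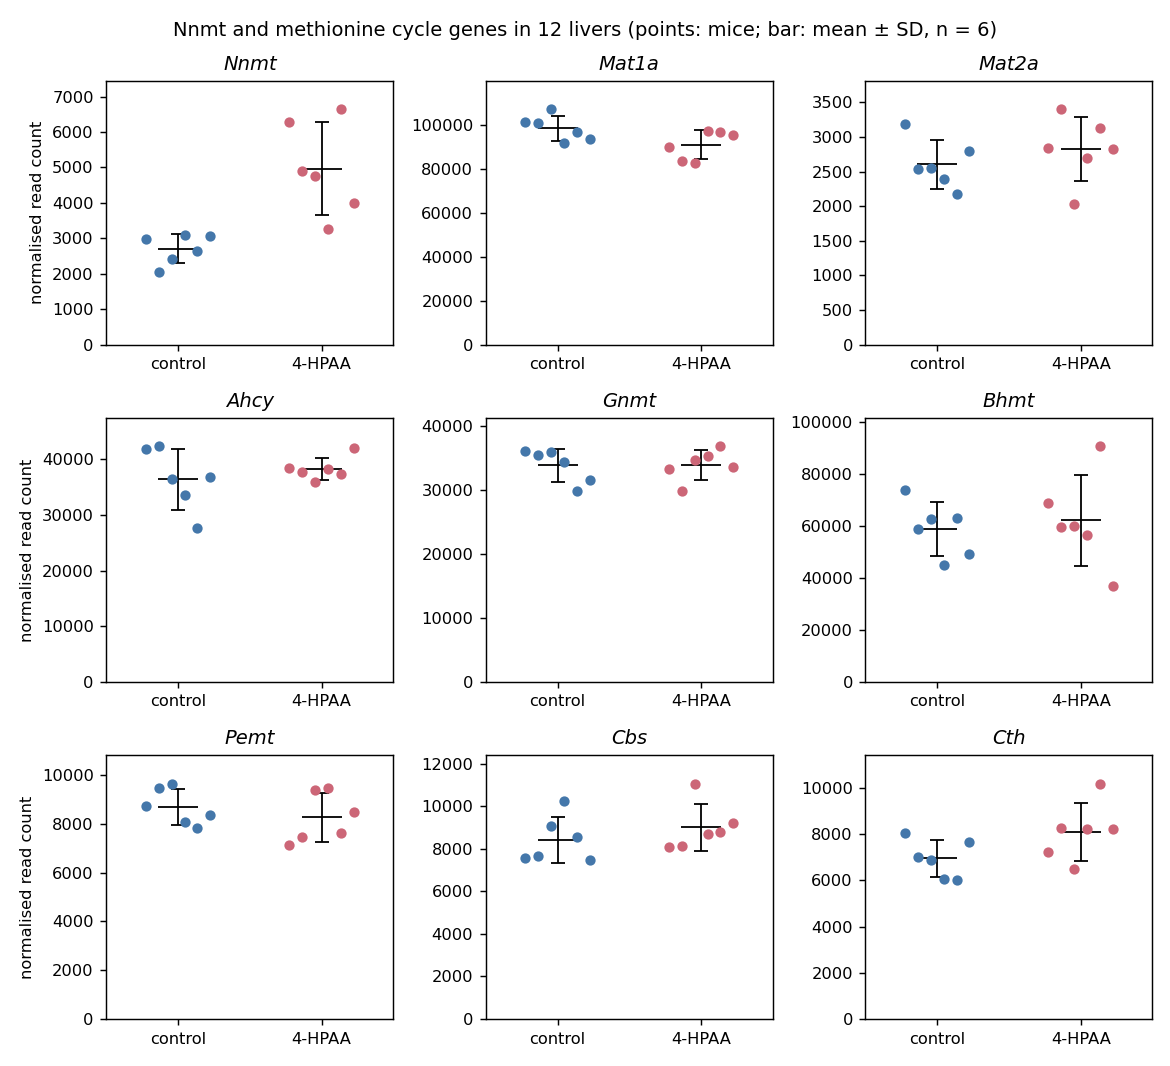
Normalised read counts (vertical axes, each from 0) of the 9 genes in 6 control and 6 4-HPAA livers; points are mice in order of replicate, bars are means ± SD. For Nnmt the 4-HPAA mice sit between 3252 and 6641, above all controls, while the groups overlap in the other 8 panels.

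Other measures were set beside Nnmt from mouse to mouse. In 4-HPAA replicates 4 and 6, which had the least Nnmt of their group, the acute phase gene Saa1 stood at 2844 and 2196, and in the other 4 at 12759 to 63934. Controls had 1270 to 2690, so Saa1 differed between the groups too, by 2.78 ± 0.78 (log2, SE), with 5 of 6 4-HPAA mice above the highest control. The 4-HPAA libraries with the fewest estimated reads were replicates 1, 2 and 5 (22388924, 23359777 and 23768179), which were also the 3 highest for Nnmt. Deviations of Nnmt from its group mean were compared with 11 such measures over the 12 mice, a comparison added after the data were seen. Saa1 gave Pearson r = 0.73 (permutation within groups, two-sided, p = 0.0353, adjusted 0.129) and Spearman rho = 0.77 (permutation p = 0.0129, adjusted 0.102), with r = 0.60 without the 2 mice farthest from the median of Nnmt, r = 0.68 within controls and 0.79 within 4-HPAA. Estimated reads gave r = −0.62 (permutation p = 0.0555, adjusted 0.153) and rho = −0.69 (permutation p = 0.0279, adjusted 0.102), and r = −0.62 without the 2 farthest mice. Weaker relations were those of the marker sums of adipocytes (r = −0.48), stellate cells and fibroblasts (−0.41), pericentral hepatocytes (−0.27) and endothelium (0.21). Cholangiocyte (−0.19), periportal hepatocyte (0.13) and lymphocyte (0.07) sums were closer to no relation. Macrophage and hepatocyte sums are given below. None of the 11 relations passed after Benjamini-Hochberg adjustment, and the part of depth or the acute phase in the difference of Nnmt was not tested.

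Nnmt is also known from adipose tissue and from stromal cells, so the markers of other cell types are given beside it. The adipocyte markers had 4 of 8 genes in the table, with Adipoq, Plin1, Lep and Retn, the defining ones, having no row. The 4 genes present summed to 960 to 2041 in controls and 543 to 1221 with 4-HPAA. They had 1 positive and 3 negative differences, with a median of −1.57. Those 3 had an unadjusted limma p under 0.05, where 7.56% of all genes were lower. The 8 stellate cell and fibroblast markers, all in the table, summed to 6314 to 9477 in controls and 3854 to 7550 with 4-HPAA. They had 0 positive and 8 negative differences, 6 with an unadjusted limma p under 0.05, where 7.56% of all genes were lower at that p. The part of these cells in the difference of Nnmt was not tested. Kupffer cell and macrophage markers (8 of 8) summed to 1836 to 8229 in controls and 2644 to 4854 with 4-HPAA. Over the 12 mice this macrophage sum followed Nnmt within groups with r = 0.54 (0.58 within controls, 0.88 within 4-HPAA; permutation p = 0.0237, adjusted 0.129 over the 11 relations) and rho = 0.58 (permutation p = 0.0273, adjusted 0.102), and r = 0.50 without the 2 farthest mice. The hepatocyte marker sum, most of which is Alb and whose 8 genes had a median difference of 0.12, had r = −0.69 (permutation p = 0.0291, adjusted 0.129) and rho = −0.53 (permutation p = 0.102, adjusted 0.234), with r = −0.38 without the 2 farthest mice. It rested on the 4-HPAA mice, with r = −0.04 in controls and −0.96 with 4-HPAA. In bulk tissue, more cells that express Nnmt and more Nnmt RNA per cell cannot be told apart.

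Levels of the 9 genes were compared per kilobase of transcript (the median length of a gene's coding transcripts). In control livers the order from the top was Gnmt, Mat1a, Bhmt, Ahcy, Pemt, Cth, Cbs, Nnmt and Mat2a. Gnmt averaged 32759 ± 2491 counts per kilobase, Nnmt 2770.2 ± 426 and Mat2a 930.04 ± 126 (SD, n = 6 each). The ranges of neighbours overlapped from Gnmt to Bhmt and from Cth to Nnmt, and the other steps did not overlap. In 4-HPAA livers Nnmt averaged 5085.3 ± 1332 counts per kilobase and stood at place 6 rather than 8, above Cth and Cbs, although its range overlapped that of Cth and it exceeded Cth in 4 of 6 mice. With the length of all exons joined, the control order was Mat1a, Gnmt, Ahcy, Bhmt, Pemt, Cth, Nnmt, Cbs and Mat2a. By that length Nnmt was at place 7 in controls and 6 with 4-HPAA. A ratio of genes within a library does not depend on the scaling: Gnmt over Nnmt, per length, was 9.70 to 16.26 in controls (median 11.08) and 5.01 to 10.25 with 4-HPAA (median 6.34). The ratio was lower in most 4-HPAA mice, and the groups overlapped at the edge.

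The genes that make SAM overlapped between the groups. Mat1a, the methionine adenosyltransferase of adult hepatocytes, ranged from 91493 to 107018 in controls (median 98697.5) and from 82812 to 97314 with 4-HPAA (median 92668). All 6 4-HPAA mice were below the control median, and 3 were below the lowest control, but the groups overlapped. The log2 difference was −0.12 ± 0.07 (SE), that is, 0.92-fold, and was −0.21 with quantile normalization. Mat2a, the form found in most other tissues and in dividing or dedifferentiated hepatocytes, ranged from 2170 to 3194 in controls (median 2545.5) and from 2029 to 3401 with 4-HPAA (median 2838.5), a difference of 0.11 ± 0.12 (SE) with 5 of 6 4-HPAA mice above the control median and 1 below the lowest control. Mat1a over Mat2a, per length, had a median of 32.72 in controls (26.63 to 37.42) and 27.43 with 4-HPAA (20.58 to 34.28), overlapping too.

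The groups also overlapped for the genes that clear S-adenosylhomocysteine and return homocysteine to methionine. Ahcy, the hydrolase that splits S-adenosylhomocysteine, was at 27592 to 42331 in controls (median 36590.0) and 35927 to 42012 with 4-HPAA (median 37966.5). Its difference was 0.08 ± 0.10 (SE), and the controls varied more, with a coefficient of variation of 15.1% against 5.31%. Bhmt, which remethylates homocysteine with betaine, was at 44834 to 73715 in controls (median 60625.5) and 36972 to 90485 with 4-HPAA (median 59651.5). It was the most variable of the 9 genes in both groups, at 17.7% and 28.2%, with a difference of 0.05 ± 0.18 (SE). The lowest and the highest of the 12 values both came from 4-HPAA mice, replicates 6 and 5. Bhmt2, which uses S-methylmethionine, was at −0.06 ± 0.07 (SE), and Dmgdh, the next enzyme of betaine breakdown, at −0.02 ± 0.10 (SE).

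Neither Gnmt nor Pemt, the other methyltransferases of the set that use SAM, moved as Nnmt did. Gnmt methylates glycine and takes up surplus SAM. It was at 29902 to 36132 in controls (median 34897.5) and 29913 to 36817 with 4-HPAA (median 34203), a log2 difference of 0.00 ± 0.07 (SE). Its coefficient of variation was 7.6% in controls and 6.91% with 4-HPAA. Pemt, which makes phosphatidylcholine from phosphatidylethanolamine, was at 8746, 9483, 9651, 8082, 7843 and 8365 in control replicates 1 to 6. In 4-HPAA replicates 1 to 6 it was at 7139, 7440, 9399, 9484, 7641 and 8493, with a difference of −0.08 ± 0.09 (SE). Controls 1 to 3 were all higher than controls 4 to 6, the same mice whose macrophage marker sums were low (1836 to 2471) and high (5007 to 8229); the labels name no such division, and its part was not tested.

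Both enzymes of transsulfuration, the path from homocysteine to cysteine, had positive differences. The median absolute log2 difference of all genes tested was 0.129. Cbs, which condenses homocysteine with serine, was at 7450 to 10239 in controls (median 8087) and 8103 to 11067 with 4-HPAA (median 8740.5). All 6 4-HPAA mice were above the control median, and 1 was above the highest control, with a difference of 0.10 ± 0.10 (SE). Cth, which cleaves cystathionine to cysteine, was at 6039 to 8037 in controls (median 6962) and 6489 to 10200 with 4-HPAA (median 8232.5). Here 4 of 6 4-HPAA mice were above the highest control and the difference, 0.22 ± 0.11 (SE), was the largest after Nnmt, at 1.16-fold. With Nnmt set aside, the 8 cycle genes thus lay between 0.92-fold and 1.16-fold. Differences this small moved with single libraries: with 1 left out, Mat2a ranged from 0.05 (without 4-HPAA replicate 2) to 0.20 (without 4-HPAA replicate 3), and Ahcy from 0.01 (without control replicate 5) to 0.13 (without control replicate 2). Pemt ranged from −0.12 (without 4-HPAA replicate 4) to −0.04 (without 4-HPAA replicate 1), and Cbs from 0.04 (without 4-HPAA replicate 3) to 0.16 (without control replicate 4). Bhmt changed sign, from −0.07 (without 4-HPAA replicate 5) to 0.19 (without 4-HPAA replicate 6).

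**Figure D2:**
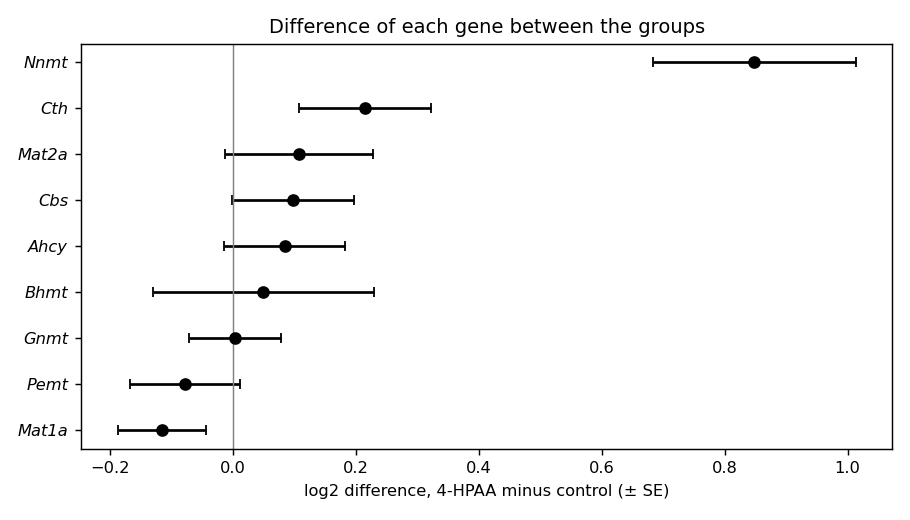
Log2 difference (4-HPAA minus control, horizontal axis, ± SE) of each of the 9 genes, from the fit over 12 livers. Nnmt lies at 0.85 and the other 8 between −0.12 and 0.22.

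In limma's fit of all 12720 genes, 0% passed an adjusted p of 0.05 and 0 of the 9 genes did. At an unadjusted p under 0.05 there were 14.8% of all genes and 7.26% with 4-HPAA higher, and 1 of the 9, Nnmt, a count that the choice of genes fixed. With array weights, and without 4-HPAA replicate 4, 1 of the 9 passed the adjusted threshold, in fits that called 139 and 193 genes in all. Nothing is read from these counts for the 9, since the genes were chosen on this contrast.

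Which genes around the cycle changed was asked over 8 lists of 122 genes outside the 9, of which 117 were in the table and all 117 were tested. None passed over all genes (limma, Benjamini-Hochberg). At an unadjusted p under 0.05 there were 7, or 5.98%, against 14.8% of all genes tested: 3 higher, Aox3, Chka and Mthfd1, and 4 lower, Csad, Slc44a2, Nnt and Nadk. The 117 genes divided into 56 positive and 61 negative differences, with a median of −0.01, where all genes had a median of 0.00. Absolute differences over 0.5 were found for 3 of the 117 and for 8.03% of all genes. The division into 3 higher and 4 lower moved with the scaling, to 2 and 5 with median-of-ratios rescaling, 2 and 8 with scaling to the library total, 2 and 7 with upper-quartile rescaling and 2 and 9 with quantile normalization. In the same order, 14.7%, 14.1%, 14.4% and 13.6% of all genes had such a p. The 7 became 14 without 4-HPAA replicate 3 and without replicate 4, 13 without replicate 6, 4 without control replicate 2, and 3 without control replicate 4 or 4-HPAA replicate 1. Shares of all genes in these fits were 19.6% and 18.8% without 4-HPAA replicates 3 and 4, and 16.9% without 4-HPAA replicate 6. They were 12.2% and 10.8% without control replicates 2 and 4, and 10.4% without 4-HPAA replicate 1. The share of the 117 was below that of all genes in each, at 2.56% to 12%.

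**Figure D3:**
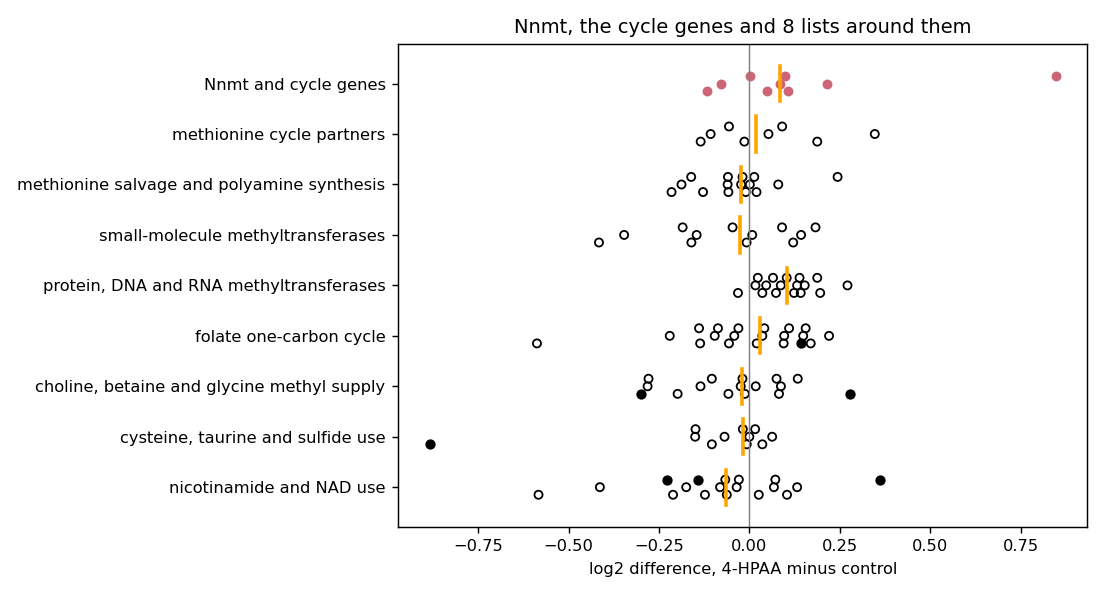
Log2 differences (4-HPAA minus control, horizontal axis) of Nnmt and the cycle genes (red) and of the 117 tested genes of 8 lists (black, filled where the unadjusted limma p is under 0.05), with each list's median as an orange bar. Nnmt, chosen on this contrast, stands alone at the right. Csad lies at the left, at −0.88, and 7 of the 117 points are filled.

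The nicotinamide and NAD list holds genes around nicotinamide, the substrate of Nnmt, most of which act on other compounds. Of 18 tested, 6 were positive and 12 negative, with a median of −0.06, and at an unadjusted p 1 was higher and 2 were lower. Aox3, an aldehyde oxidase of mouse liver of the kind that oxidises methylnicotinamide, was at 11068 to 15356 in controls (median 13515.5) and 13146 to 19689 with 4-HPAA (median 17763), with 4 of 6 4-HPAA mice above the highest control. Its difference was 0.36 ± 0.12 (SE; limma, unadjusted p = 0.00731, adjusted p = 0.2). Nnt, the mitochondrial transhydrogenase, differed by −0.23 ± 0.10 (limma, adjusted p = 0.324). Nadk, the NAD kinase, differed by −0.14 ± 0.07 (limma, adjusted p = 0.331). Nampt, the rate-limiting enzyme of nicotinamide salvage and the counterpart of Nnmt, was named for its role after its value was seen and stood at −0.41 ± 0.20 (SE; limma, unadjusted p = 0.0534).

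The other methyltransferases lay closer to 0 than Nnmt. Of 12 that act on small molecules, 5 were positive and 7 negative, with a median of −0.03, and none had an unadjusted p under 0.05. Hnmt, which inactivates histamine, was at 1144 to 1369 in controls and 453 to 1339 with 4-HPAA, with 5 of 6 4-HPAA mice below the lowest control and a difference of −0.42 ± 0.20 (limma, adjusted p = 0.342), which was −0.21 without 4-HPAA replicate 3. Tpmt, which methylates thiopurines, was at 0.18 ± 0.09, and Gamt, the last enzyme of creatine synthesis, at −0.18 ± 0.10 (limma, adjusted p = 0.355 and 0.392). Of 17 protein, DNA and RNA methyltransferases, 16 had positive and 1 had negative differences, with a small median of 0.10. Among all 12720 genes tested, 6331 were positive and the median absolute difference was 0.129. None had an unadjusted p under 0.05, and all differences lay between −0.03 and 0.27. The 3 of smallest p were the DNA methyltransferase Dnmt3a at 0.14 ± 0.08, the RNA adenosine methyltransferase Mettl3 at 0.19 ± 0.11 and the arginine methyltransferase Prmt5 at 0.13 ± 0.10 (limma, adjusted p = 0.42, 0.443 and 0.551).

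Genes that feed methyl groups into the cycle lay on both sides of 0. The folate list had 11 positive and 9 negative differences among 20 tested genes, with a median of 0.03. Mthfd1, the cytosolic enzyme that interconverts folate forms, was at 5533 to 6238 in controls and 6057 to 7401 with 4-HPAA, above the highest control in 5 of 6 mice, with a difference of 0.14 ± 0.07 (limma, unadjusted p = 0.0492, adjusted p = 0.335). Shmt1, which transfers the carbon of serine to folate, was at 0.15 ± 0.08, and the mitochondrial Mthfd1l, at low levels of 35 to 130, at −0.59 ± 0.29 (limma, adjusted p = 0.39 and 0.364). The choline and betaine list had 6 positive and 10 negative differences among 16 genes. Chka, the first enzyme of phosphatidylcholine synthesis from choline, was at 405 to 608 in controls and 516 to 710 with 4-HPAA, a difference of 0.28 ± 0.11 (limma, unadjusted p = 0.0223, adjusted p = 0.259). Slc44a2, a choline transporter, was at 150 to 220 and 127 to 170, a difference of −0.30 ± 0.11 (limma, unadjusted p = 0.0179, adjusted p = 0.24), and Chkb, the other choline kinase, at −0.20 ± 0.12 (limma, adjusted p = 0.48).

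Downstream of Cth, the cysteine list had 3 positive and 8 negative differences among 11 genes. Csad, which makes the precursor of taurine, was at 1176 to 4065 in controls (median 1702.5) and 601 to 1510 with 4-HPAA (median 991.5), a difference of −0.88 ± 0.28 (limma, unadjusted p = 0.00778, adjusted p = 0.204). Its difference was the largest of the 117 genes, and 4 of 6 4-HPAA mice were below the lowest control. Without control replicate 4, which held the 4065, the difference of Csad was −0.65. Cdo1, which oxidises cysteine in the step before, was at −0.10 ± 0.08, and Sqor, which oxidises sulfide, at −0.15 ± 0.07 (limma, adjusted p = 0.603 and 0.368). Neither the 8 partners of the methionine cycle nor the 15 genes of methionine salvage and polyamine synthesis had an unadjusted p under 0.05. Among the partners, Ahcyl2, a relative of Ahcy, was at 0.35 ± 0.17, Mtrr, which reactivates methionine synthase, at 0.19 ± 0.11, and Mtr, methionine synthase itself, at −0.13 ± 0.11 (limma, adjusted p = 0.369, 0.454 and 0.587). Srm, spermidine synthase, was at 0.24 ± 0.13, the antizyme inhibitor Azin1 at −0.22 ± 0.14 and the antizyme Oaz1 at −0.16 ± 0.12 (limma, adjusted p = 0.392, 0.497 and 0.559). Several of these small differences rested on single libraries. Without 4-HPAA replicate 3, Azin1 was at −0.08, Mtr at −0.06 and Oaz1 at −0.25. Without 4-HPAA replicate 1, Ahcyl2 was at 0.20, Oaz1 at −0.10 and Chkb at −0.13. Without 4-HPAA replicate 2, Oaz1 was at −0.09 and Cdo1 at −0.06, and without control replicate 4 Shmt1 was at 0.09.

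How the 9 genes varied together within the groups was not used in choosing them. Each value was taken as its deviation from the group mean in log2 units, and all 36 pairs were correlated over the 12 mice, with permutation within groups. No pair passed on Pearson's r after Benjamini-Hochberg adjustment, and 5 of 36 had an unadjusted permutation p under 0.05. Mat2a and Cth varied together, with r = 0.81 (permutation p = 0.00491, adjusted 0.177) and rho = 0.87 (permutation p = 0.00124, adjusted 0.0446), so that the rank correlation passed. The pair had r = 0.94 within controls and 0.74 within 4-HPAA, 0.72 without 4-HPAA replicate 3, and 0.62 without the 2 mice farthest from the median of Mat2a. Mat2a and Cbs varied in opposite directions, with r = −0.73 (permutation p = 0.0154, adjusted 0.187) and rho = −0.69 (permutation p = 0.0218, adjusted 0.262). This relation weakened to −0.42 without the 2 farthest mice, control replicate 1 and 4-HPAA replicate 3, and so rests partly on them.

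**Figure D4:**
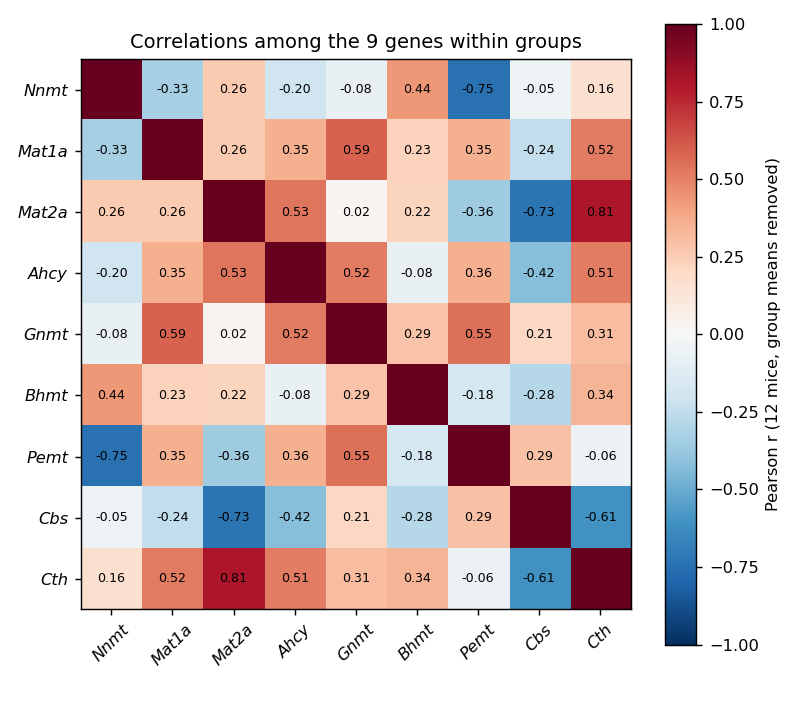
Pearson r of each pair of the 9 genes over 12 mice after removal of the group means (colour scale from −1 to 1). The strongest are Mat2a with Cth at 0.81, Nnmt with Pemt at −0.75 and Mat2a with Cbs at −0.73.

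Nnmt and Pemt, both consumers of SAM, varied in opposite directions. The correlation was r = −0.75 (permutation p = 0.0155, adjusted 0.187) and rho = −0.74 (permutation p = 0.0188, adjusted 0.262). It had the same sign in each group, at −0.69 within controls and −0.77 within 4-HPAA, and was −0.66 without the 2 farthest mice and −0.82 without 4-HPAA replicate 3. Among 4-HPAA mice Pemt was lowest in replicates 1, 2 and 5, the 3 with the most Nnmt, and highest in 4-HPAA replicate 4, where Nnmt was lowest of its group. Of 9345 other genes with a mean of at least 100, 3.04% had an r with Nnmt as far from 0, and 0.942% in the same direction. Other genes thus had as strong a relation, and it is not particular to Pemt. Ahcy and Mat2a (r = 0.53, rho = 0.49, permutation p = 0.0422 and 0.117, adjusted 0.29 and 0.523) and Cbs and Cth (r = −0.61, rho = −0.57, permutation p = 0.0496 and 0.0711, adjusted 0.29 and 0.512) were the remaining pairs under 0.05. Without the 2 farthest mice they stood at r = 0.43 and −0.20. Members of a pair share library and scaling, and other genes had relations as strong. Of the 9345, 3.36% had an r with Mat2a as far from 0 as Cth, and 12.3% as far as Cbs. For Cbs with Cth the share was 26.4%.

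**Figure D5:**
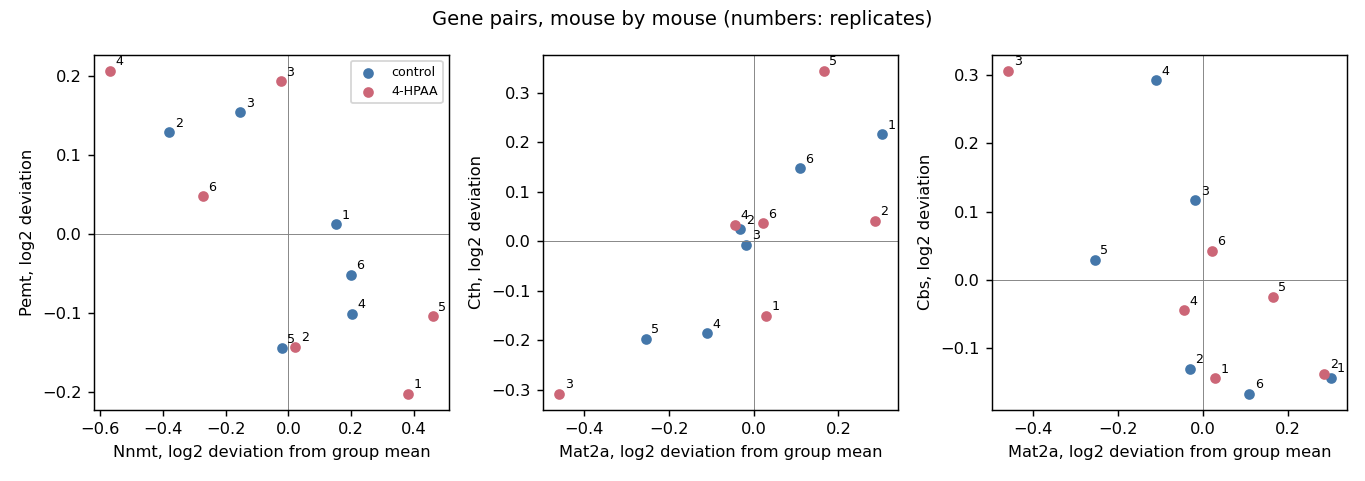
Deviations from the group mean (log2) of Nnmt and Pemt, Mat2a and Cth, and Mat2a and Cbs, 1 point a mouse, numbered by replicate and coloured by group. In the first panel 4-HPAA replicate 4 lies at the upper left and replicates 1 and 5 at the lower right.

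The genes whose mouse-to-mouse pattern was most like that of Nnmt were taken from the same 9345 by the highest r over 12 mice after removal of group means. They were Eif2b5, a subunit of a translation initiation factor (r = 0.91), Gtf2f1, a general transcription factor subunit (0.90), Rint1 (0.90), Txlna (0.89) and Cd163, the haemoglobin scavenger receptor of macrophages (0.89). The most opposed were Cnn3, a calponin (−0.88), Dhrs7, a short-chain dehydrogenase (−0.87), and Atxn2 (−0.86). These are the extremes of a large search and carry no p. The log2 differences between the groups, each ± SE, were 0.08 ± 0.07 for Eif2b5, 0.18 ± 0.11 for Gtf2f1 and 0.33 ± 0.17 for Rint1. Txlna was at 0.35 ± 0.18, and Cd163 at 0.02 ± 0.44, a difference far smaller than its error. Of the most opposed, Cnn3 was at −0.06 ± 0.08, Dhrs7 at −0.26 ± 0.12 and Atxn2 at 0.07 ± 0.12. Cd163 was at 76 to 223 in controls and 39 to 334 with 4-HPAA.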

How the data were processed

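Liver RNA (QIAGEN RNeasy) was sequenced on a NovaSeq from directional mRNA libraries, per the labels' protocols. DESeq2 1.28.1, edgeR, HTSeq, STAR, cutadapt and FastQC 0.11.9 appear in the submitters' processing notes with the build GRCm38, but with no role or order. The values that the authors deposited are handled as a score: whole numbers that look like reads multiplied by a single factor for each library and then rounded, since in most libraries some whole numbers are missing or unusually frequent at regular spacing. Estimated reads are the library totals times factors fitted to that spacing. The smallest value is 2, so genes with an empty library are not listed. IDs were matched to GENCODE M21, which named 13200 of 13267.

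A gene was tested if 6 or more libraries reached 10, which 12720 genes did. Their log2(value + 1) was fitted in limma 3.58.1 (R 4.3.3; eBayes with trend and robust), with Benjamini-Hochberg adjustment over all of them. EdgeR had been planned had the values been raw counts, which they are not. Correlations used 100000 permutations within groups. The fit was tested on simulated data. The 9 genes and all lists were chosen with earlier results of these data known. The named genes are the 9, the 3 of smallest p in each of 8 lists, and the 5 highest and 3 lowest correlations with Nnmt among genes that are not predicted, with a mean of at least 100. Others (Alb, Saa1, Nampt, Bhmt2, Dmgdh, Gm4737, Particl) are named for their role beside a result, after their values were seen. Of 30 pairs of libraries within a group, none were alike within sampling noise (chi-square per gene at least 17.86).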

Additional observations from a re-analysis of the deposited data

Results flagged for a closer look

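Within the groups of 6, 4 of 66 gene and group combinations held 1 mouse whose gap to the nearest other exceeded Dixon's critical share of the group's range, where chance gives about 1 in 20. None was a value of Nnmt or of the cycle genes. Csad was at 4065 in control replicate 4, with the other controls at 1176 to 1844. Tpmt was lowest in the same mouse, at 1310 against 1547 to 1613. Nnt was at 1146 in control replicate 6, against 1517 to 1650 in the other controls. Mthfd1 was at 7401 in 4-HPAA replicate 3, against 6057 to 6496 in the other 4-HPAA mice.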

How the results depend on the processing

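Over 23 alternatives the difference of Nnmt was 0.76 to 0.96 with 1 library left out and 0.82 to 0.95 otherwise. With a replicate block it was 0.85. Leaving out 1 library could not change its sign, because the groups do not overlap. Nnmt was chosen on this contrast, so nothing is read from its sign. The labels do not say that a replicate number marks anything shared. Correlations of same-numbered deviations ran from −0.18 to 0.28, with 3 of 6 over 0.1 and 3 of 6 best with their own number. These few values cannot settle whether the numbers mark pairs. The main fit left the mice unpaired because the labels name no pairs. With the block, 11 of all genes passed the adjusted threshold against 0 without it, 7 pathway genes had an unadjusted p under 0.05, and 0 of 36 Pearson correlations passed. Rank correlations were not run under the alternatives. That count of 7 became 11 with quantile normalization and 22 with array weights, where 13.6% and 24% of all genes had such a p. With 1 library left out the count ranged from 3 to 14, and the share of all genes from 10.4% to 19.6%. Mat1a was at −0.21 with quantile normalization, where 2 of the 9 genes had an unadjusted p under 0.05. The number of the 9 genes passing the adjusted threshold was 1 with array weights and 0 to 1 with 1 library left out. Nothing is read from such counts of the 9, which were chosen on this contrast. The count of Pearson correlations that passed was 0 to 1 with 1 library left out, the 1 being Mat2a and Cth without 4-HPAA replicate 2 or 5. The sign of Gnmt and Bhmt changed between alternatives, at −0.12 to 0.04 and −0.12 to 0.19.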
